A study of Mus musculus with 2 samples.

Results

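Among endothelial cells sorted from mouse tumours, a group of 338 cells was defined by the mean signal of 6 genes of lipid handling and small-molecule metabolism: Cd36, Lpl, Cyp4b1, Sult1a1, Thrsp and Apoe. The cells were chosen from the 4224 cells, of 6194 in all, in which at least 2000 genes were detected. Each of these kept cells was scored by the mean of its deposited natural log values of the 6 genes, and the 8% with the highest scores are called the members here. All other kept cells are called the other cells. Because the score used these same cells, every difference between members and other cells is a description without a test, for the 6 genes and for all genes that vary with them.

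The study compared CD31+ tumour endothelial cells of 1 control library and 1 library labelled NF2 KO, both from Adult mice of strain c57bl/6, on the 10x Genomics 3′ platform (v3.1). Nf2 encodes merlin, a membrane-linked protein upstream of the Hippo kinases that restrain the coactivators YAP and TAZ. The tumour type, the number of mice in each library, the driver of the deletion and the exons removed are not given in the sources used here. Each library holds barcodes of 2 runs, whose meaning the labels do not state. They are shown side by side as parts of 1 library and never as replicates, so no p-value was computed, and intervals (95%) cover counting error only.

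Capillary endothelium of heart, muscle and fat feeds the parenchyma with fatty acids. Lipoprotein lipase (Lpl) is anchored on the capillary wall by Gpihbp1 and frees fatty acids from circulating lipoproteins, the scavenger receptor Cd36 takes them up, and the binding proteins Fabp4 and Fabp5 carry them through the cell. In such endothelium the nuclear receptor Pparg and the factor pair Meox2 and Tcf15 are known to drive these genes. Venules, by contrast, are the vessels that carry the adhesion molecule Selp and the chemokine-binding receptor Ackr1 and admit leukocytes.

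Cd36 (ENSMUSG00000002944.15) lies on the minus strand of chromosome 5 of GRCm38, from 17781690 to 17888801. The 250 bases before its RefSeq start site (GRCm38.p6, minus strand, chr5:17835897-17836146) are shown because Cd36 was the score gene found in the most members and because Pparg, whose dimers with Rxr bind repeats of the half-site searched, was higher in them. The window lies within the span of the gene and overlaps no annotated exon (GENCODE M21). Capitals mark the half-site AGGTCA in reverse complement, TGACCT, which begins 228 bases before the start. The window held 1 half-site and so no repeat of it.
Cd36 promoter: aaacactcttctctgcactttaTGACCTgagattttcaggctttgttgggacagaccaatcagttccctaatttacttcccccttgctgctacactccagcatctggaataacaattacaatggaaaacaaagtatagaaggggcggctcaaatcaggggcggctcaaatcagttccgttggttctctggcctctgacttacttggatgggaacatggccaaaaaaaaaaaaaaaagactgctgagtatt
The half-site, searched on both strands, occurs in 14% of 32851 RefSeq windows of this length, so a match describes the letters and not a binding site. Of 12 lipid and capillary genes searched, 7 had a window, and 2 of those, Cd36 and Aqp7, held the half-site.

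The members came mostly from the library labelled NF2 KO, hereafter the knockout library, and within it mostly from 1 run. In that library 300 of 2820 kept cells were members (10.6%, exact binomial interval 9.52 to 11.8), and in the control library 38 of 1404 (2.71%, 1.92 to 3.70). By run, the shares were 2.67% (20 of 748) and 2.74% (18 of 656) in the control and 5.40% (62 of 1148) and 14.2% (238 of 1672) in the knockout library. The control runs lay together, both knockout runs lay above them, and the knockout runs differed from each other by more than the first of them differed from the control.

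**Figure D1:**
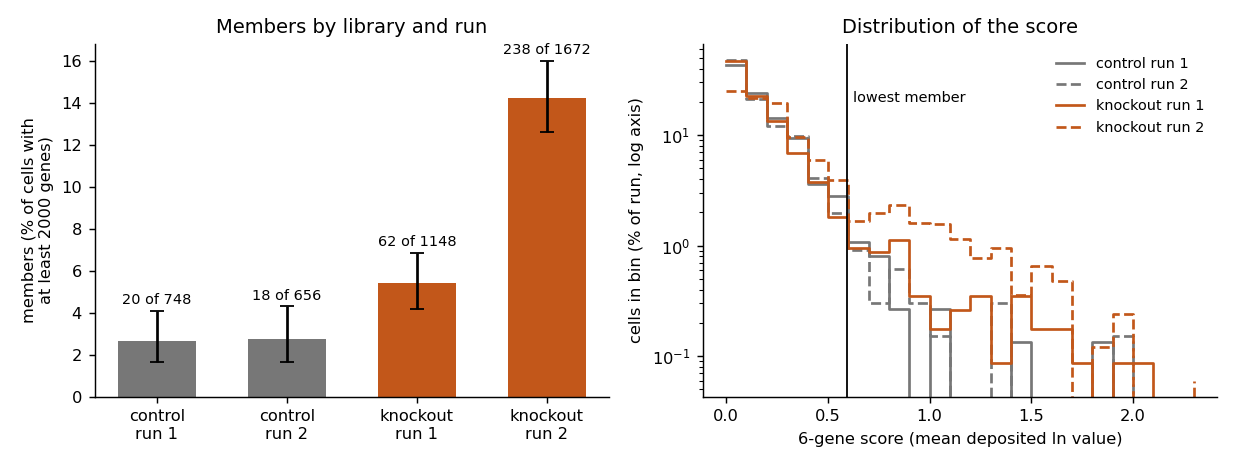
Left, members as a percentage of kept cells in each run, with exact binomial 95% intervals and cell numbers; the control runs stand at 2.67% and 2.74%, the knockout runs at 5.40% and 14.2%. Right, the distribution of the score by run on a log axis, with the lowest member (0.595) marked; knockout run 2 holds the most cells along most of the range above it.

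Depth differed along with membership. The median member held 11671.5 UMIs (counted molecules) in the knockout library, against 18690.5 in the other cells, and 11467.5 against 19273.5 in the control. The gene minimum kept 36.8% of the cells of control run 1, 82.6% of control run 2, 86.4% of knockout run 1 and 82.0% of knockout run 2. Among kept cells of 5000 to 15000 UMIs, a window chosen after seeing the data and called the depth window here, with its highest 8% taken as members, the shares by run became 0.654% (2 of 306) and 2.65% (4 of 151) in the control and 4.45% (23 of 517) and 17.2% (91 of 529) in the knockout library. Barcodes shared between runs numbered 3, none of them of a member. The highest 5% of simulated-doublet scores in each library held 8 of the 300 knockout members (2.67%) and none of the 38 control members. They held 6.35% and 9.96% of the other cells.

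Nf2 itself, the gene named in the label, lay only a little lower in the knockout runs than in the control runs, in members and in other cells. Nf2 stood at 22.0 and 25.3 CPM (UMIs per 1000000 UMIs of the group) in the 2 runs of knockout members, and at 30.7 and 28.2 CPM in those of control members. In the other cells it was 20.2 and 19.9 CPM in the knockout runs and 20.6 and 22.1 CPM in the control runs. Since 3′ tags can lie outside the deleted part, these levels do not check the label, and each direction between libraries given here rests on the label alone.

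The lowest 3 members scored 0.595, 0.595 and 0.596, the next 3 cells below them 0.594, 0.593 and 0.592. The median member scored 0.894 and the highest 2.30, against a median of 0.135 in the other cells, 25.2% of which had none of the 6 genes. A percentile threshold sets this edge, and the cells were not clustered.

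Cd36 was the gene common to the members, and Lpl the rarest of the 6. In the knockout members Cd36 stood at 1329 CPM in run 1 and 1413 CPM in run 2, against 123 and 206 CPM in the other cells. It was detected in 299 of the 300. Control members had 1413 and 1097 CPM, against 164 and 128 CPM, so both libraries showed the same separation without overlap between runs.

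Apoe, the apolipoprotein that carries lipid between cells, reached 414 and 333 CPM in the runs of knockout members, against 13.4 and 14.6 CPM. In control members it was 239 and 518 CPM. Sult1a1, a sulfotransferase of phenolic compounds, reached 215 and 232 CPM in knockout members, against 3.46 and 6.08 CPM. Control members held less of it, 92.1 and 127 CPM.

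Cyp4b1, a cytochrome P450 of fatty acid and xenobiotic oxidation, was the score gene with the widest excess of knockout over control members. It stood at 192 and 162 CPM in the former and at 47.8 and 35.3 CPM in the latter, a ratio of 3.99 (2.66 to 6.27). The excess was not confined to members: Cyp4b1 was detected in 10.9% of the other knockout cells and 2.34% of the other control cells. In the depth window the ratios of Apoe and Cyp4b1 of members over other knockout cells were 13.6 and 7.15, against 24.4 and 13.0 over all kept cells, and Sult1a1 was at 399 against 26.7 CPM.

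Thrsp, a nuclear protein tied to lipogenesis, had 127 and 70.7 CPM in knockout members and 44.4 and 63.5 CPM in control members, against 1.21 to 3.92 CPM over the runs of other cells.

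In level, Lpl went the other way between libraries. Knockout members had 55.9 and 48.5 CPM and control members 123 and 91.7 CPM, a ratio of 0.461 (0.346 to 0.623). Outside the members Lpl was close to absent: 0.508 CPM in the other knockout cells, and 1 UMI among the 31195126 UMIs of the other control cells. The share of members with an Lpl UMI did not go this way: it was 26.3% in each library, 79 of 300 and 10 of 38. With cells thinned to an equal number of UMIs, as below, it was 15.4% in knockout members. In thinned control members it was 8.11% (3 of 37). In the control members all Lpl UMIs came from 10 cells, and 1 cell gave 25.8% of them.

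Few members carried the whole set. Of the 300 knockout members, 25 had UMIs of 2 of the 6 genes, 98 of 3, 98 of 4, 56 of 5 and 23 of all 6. After each cell was thinned to 5000 UMIs, which left out 2 shallower knockout members and 13 other cells, Cd36 was found in 97.3% of the knockout members, Apoe in 64.8%, Sult1a1 in 55.7%, Cyp4b1 in 41.3%, Thrsp in 26.5% and Lpl in 15.4%. The same shares without thinning were 99.7%, 81.0%, 77.0%, 57.7%, 43.0% and 26.3%. In thinned other cells Cd36 was found in 43.5%, and the other 5 genes in 0.319% to 6.74%. Cyp4b1 and Apoe tended to sit in different members: with Apoe detected, 34.7% of thinned members also had Cyp4b1, and without it 53.3%. The score sums the genes, so a cell low in one had to be high in another to enter, and this split was not tested.

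Each gene was also left out of the score in turn, and read in the cells that the other 5 genes then chose. In the knockout library Lpl was 54.1-fold higher (38.9 to 76.7) in cells chosen without it, Thrsp 17.1-fold, Apoe 17.1-fold, Cyp4b1 7.74-fold and Cd36 6.86-fold. In the control the 6 ratios ran from 6.45 for Cd36 to 103 for Lpl. All 6 genes were thus higher in cells chosen by the remaining 5, in both libraries. The cells chosen were largely the members: without Lpl, 295 of the 300 chosen knockout cells. The members were chosen with earlier results of these data known, so this describes the choice and is no test of it.

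Outside the score, the most abundant of the 20 genes with the highest ratios was Fabp4, the fatty acid-binding protein. It stood at 10937 and 11479 CPM in the runs of knockout members and at 1353 and 2330 CPM in the other cells, a ratio of 5.79 (5.73 to 5.85). In control members it was 8996 and 8090 CPM, against 2868 and 2079 CPM. Every run of members lay above every run of other cells.

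The words higher and lower, used of a gene past the size rule, require a ratio of at least 1.5 either way, an interval that excludes 1, a mean of at least 20 CPM over the groups compared and both runs on the same side. By this rule 500 of 5841 genes were higher in knockout members than in the other knockout cells (8.56%) and 390 were lower (6.68%). In the control library 600 of 5955 were higher (10.1%) and 618 lower (10.4%). These shares are the background against which the counts of each gene list are to be read.

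**Figure D2:**
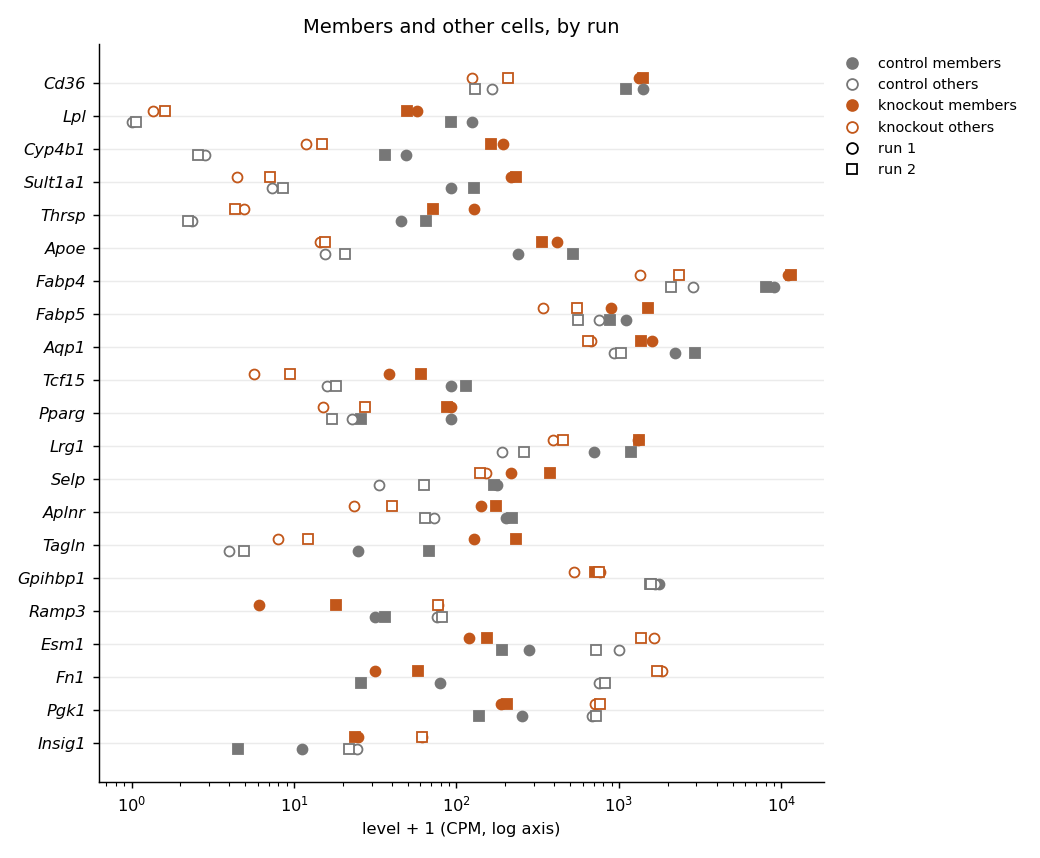
Level plus 1 CPM, on a log axis, of 21 genes in members (filled) and other cells (open), by library (colour) and run (circle or square). The score genes, Fabp4, Tcf15 and Tagln lie to the right in members, and Fn1, Esm1 and Pgk1 to the left, while Gpihbp1 of members and other cells overlaps.

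Of the matrix genes, Fbln5, Ltbp4 and Eln were among the 20 highest ratios outside the score and Fn1 and Col8a1 among the 15 lowest. Fbln5, an elastin-binding fibulin, stood at 220 and 293 CPM in knockout members against 47.2 and 45.4 CPM, a ratio of 6.13 (5.71 to 6.58). Ltbp4, which binds latent TGF-beta to fibres, had 86.5 and 110 CPM against 12.7 and 19.2 CPM. Elastin itself, Eln, had 40.7 and 53.4 CPM against 3.67 and 4.56 CPM, though found in only 55 of the 300 cells. In the depth window the ratios of Fbln5 and Eln were 3.09 and 2.15.

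Tagln, an actin-binding protein best known from smooth muscle, had the highest ratio of the 20 at 22.5 (20.1 to 25.1), and 7.80 in the depth window. Its levels were 127 and 232 CPM in the runs of knockout members and 6.98 and 11.2 CPM in the other cells, and 90 members carried it. Other mural genes were low in level: Pdgfrb was at 1.46 CPM, Myh11 at 0.486 CPM and Acta2 at 7.05 CPM in knockout members. Their ratios over other cells went both ways. They were 7.76 for Pdgfrb, 2.46 for Notch3, 2.07 for Des and 1.67 for Acta2, and 0.0933 for Kcnj8 and 0.265 for Abcc9. After thinning, 31.9% of knockout members and 13.4% of other knockout cells had a UMI of the mural list, Tagln included. The source of these UMIs was not tested. Rgs5, a further pericyte gene, was at 26.3 CPM against 2.88 CPM, below the minimum mean level. Of the 10 pericyte and smooth muscle genes only Tagln passed the minimum, and their sum was 259 CPM in members and 47.3 CPM in other cells.

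The receptors and signals among the 20 were Aplnr, the apelin receptor (141 and 173 CPM against 22.5 and 39.3 CPM), Gpr182, an endothelial chemokine-binding receptor (54.2 and 65.0 CPM against 7.69 CPM over both runs), and Csf2rb, the shared beta chain of the GM-CSF, IL-3 and IL-5 receptors (202 and 322 CPM against 57.3 and 74.7 CPM). Gas6, a ligand of the Tyro3, Axl and Mer receptors, and the ephrin Efnb1 were 7.04-fold and 6.16-fold higher. Mylip, a ubiquitin ligase, was 7.54-fold higher (6.91 to 8.23), at 209 and 194 CPM in members. Pltp, the phospholipid transfer protein, had 28.8 and 40.9 CPM against 1.68 and 2.21 CPM.

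The rest of the 20 were the taurine transporter Slc6a6 (ratio 10.2), the interferon-induced Ifi27l2a (9.06), the capillary transcription factor Tcf15 (8.02), the claudin Cldn15 (7.38), Fjx1 (12.5), Tmcc3 (6.83), Ablim3 (6.58) and the neurotensin gene Nts (12.8). For Nts, 1 cell gave 64.2% of the UMIs of the knockout members, and the ratio without that cell was 4.62. In the depth window Nts was lower in members, at 2.71 CPM from 3 UMIs against 26.7 CPM. Of the 20 genes, 19 kept their direction in that window, and 11 of those had a ratio over 1.5 times nearer to 1. In the control library all 20 were at least 1.5-fold higher in members, and 14 passed the full size rule.

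Vessel-type markers gave a mixed answer to the working name of capillary cells. Of 17 capillary genes tested, 7 were higher in knockout members, 2 were lower and 8 passed neither way. The median log2 ratio, with 10 CPM added to both sides, was 0.55 over all genes of the list in the data. It was 0.39 over those tested, against -0.01 over all genes tested. Medians given for lists below are over all their genes in the data, tested or not. Besides Fabp4 the higher genes were Fabp5 (892 and 1502 CPM against 342 and 554), the water channel Aqp1 (1588 and 1366 CPM against 668 and 643), Cd300lg (251 against 69.4 CPM over both runs), Btnl9, Sgk1 and Tcf15. Tcf15 had 37.3 and 59.6 CPM against 4.64 and 8.44 CPM.

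Gpihbp1 and Rgcc were among the 8 capillary genes that passed neither way, as were Car4, Meox2, Kdr, Adgrf5, Cav1 and Plvap. Gpihbp1, the anchor of lipoprotein lipase, was at 765 and 711 CPM in members and at 528 and 751 CPM in other cells, which overlap. Rgcc was at 431 against 427 CPM. Ramp3 and Ednrb, receptor components of capillaries, were lower. Ramp3 was 4.95-fold lower, at 15.3 CPM against 76.2 and 75.6 CPM in the runs of other cells, and at 5.41 against 64.3 CPM in the depth window. Ednrb was 1.85-fold lower, at 84.8 and 42.9 CPM against 88.9 and 91.5 CPM. In the depth window the Gpihbp1 ratio was 1.54 in place of 1.07. Aqp7, a glycerol channel of fat capillaries named here after its values were seen, was below the minimum mean level, at 28.8 and 27.0 CPM in members against 0.102 and 0.179 CPM.

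Of 14 venular genes tested, 8 were higher and 3 lower, with a median of 0.66. Lrg1 stood at 1312 and 1330 CPM against 393 and 454 CPM, and Selp at 217 and 376 CPM against 150 and 138 CPM. Ackr1 had 142 and 150 CPM against 56.4 and 35.3 CPM. Selp and Ackr1 were not higher in the depth window, where Selp was at 208 against 213 CPM and Ackr1 at 59.6 against 103 CPM, while Lrg1 was 2.06-fold higher. Il6st, the gp130 chain of IL-6 family receptors, was 3.95-fold higher (3.73 to 4.17), and Ephb4, Icam1, Aplnr and Tmem252 were higher as well. Vcam1, Cpe and Ctla2a were lower.

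By these markers the label of capillary cells held in part, and the group is called here by its score. Of 4 arterial genes tested in the knockout library 2 were higher (Sox17 and Fbln5) and 1, Dll4, was lower, and of 9 in the control library 6 were higher and none lower. Arterial genes summed to 905 CPM in knockout members against 788 CPM, and to 1634 CPM in control members against 784 CPM. General endothelial genes were present throughout, with Pecam1 at 1378 CPM and Cdh5 at 1069 CPM in knockout members. Of the 18, 3 were higher (Tek, Cldn5 and Sox17) and 1, Flt1, was lower. A score of the capillary genes Ednrb and Ramp3 chose 338 cells of which 5 were members (1.48% of each set). A score of Ackr1 and Selp chose 338 of which 73 were members (21.6% of each). In the knockout library the Ednrb and Ramp3 set held 1% of the members and 8.45% of the other cells. The Ackr1 and Selp set held 22.3% of the knockout members and 8.61% of the other knockout cells.

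Tip-cell genes, which mark sprouting endothelium, were low in the members. Of 15 tested, 12 were lower and none higher, with a median of -1.14. Esm1 stood at 119 and 153 CPM against 1641 and 1360 CPM, 9.88-fold lower (9.13 to 10.7), and 36.9-fold lower in the depth window. Adm was 3.63-fold lower, Cxcr4 3.27-fold (9.21-fold in the depth window), Angpt2 2.87-fold and Apln 2.22-fold. Fn1, the matrix protein fibronectin, was the first of the 15 genes with the lowest ratios, ranked with 10 CPM added to both sides. Its levels were 30.5 and 56.8 CPM against 1844 and 1723 CPM. It was 33.3-fold lower (29.2 to 38.3) and 64.3-fold lower in the depth window. A single cell gave 33.0% of what the members had, and without it Fn1 was 49.4-fold lower.

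Glycolysis and hypoxia genes were low as groups. Of 14 glycolysis genes tested 12 were lower and none higher, and they summed to 3985 CPM in members against 9397 CPM in other cells. Pgk1 was at 186 and 204 CPM against 711 and 760 CPM, Tpi1 was 3.74-fold lower, Slc2a1, the main glucose importer, 3.59-fold lower and Gapdh 2.30-fold lower. Of 11 hypoxia genes 9 were lower, led by Egln3, an oxygen-sensing hydroxylase, at 6.78 and 5.96 CPM against 77.8 and 80.1 CPM. Ndrg1 alone of that list was higher, at 446 against 216 CPM. The control library showed the same counts, 12 of 14 and 9 of 11 lower.

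Of 11 cell cycle genes 9 were lower, among them Mki67 (27.1 and 42.3 CPM against 87.3 and 89.1 CPM), Cdk1 and Top2a. Of 15 YAP and TAZ targets 6 were lower and none higher: Ankrd1, Igfbp3, Tgfb2, Ajuba, Nt5e and Myof. Ankrd1 was at 5.09 and 1.70 CPM against 102 and 87.5 CPM, 42.4-fold lower (22.3 to 92.9). The most abundant targets, Cyr61 (755 against 832 CPM) and Ctgf (517 against 588 CPM), passed neither way. Igfbp3 was 6.18-fold lower, and the galanin gene Gal 63.6-fold lower from 3 UMIs (21.7 to 309).

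Other genes among the 15 lowest were Ankrd37, Sdc4, Slc16a3, Mirt1, the carboxypeptidase Cpe, the growth factor Pgf, the collagen Col8a1 and the mitotic gene Ube2c. Pgf was 4.35-fold lower. The 14 with UMIs in members of the depth window kept their direction there, 7 of them over 1.5 times farther from 1. In the control library all 15 lay on the same side, and 11 passed the size rule. Ankrd1 had no UMI in control members, which allows up to 5.20 CPM (3 UMIs), against 13.2 CPM in the other control cells.

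**Figure D3:**
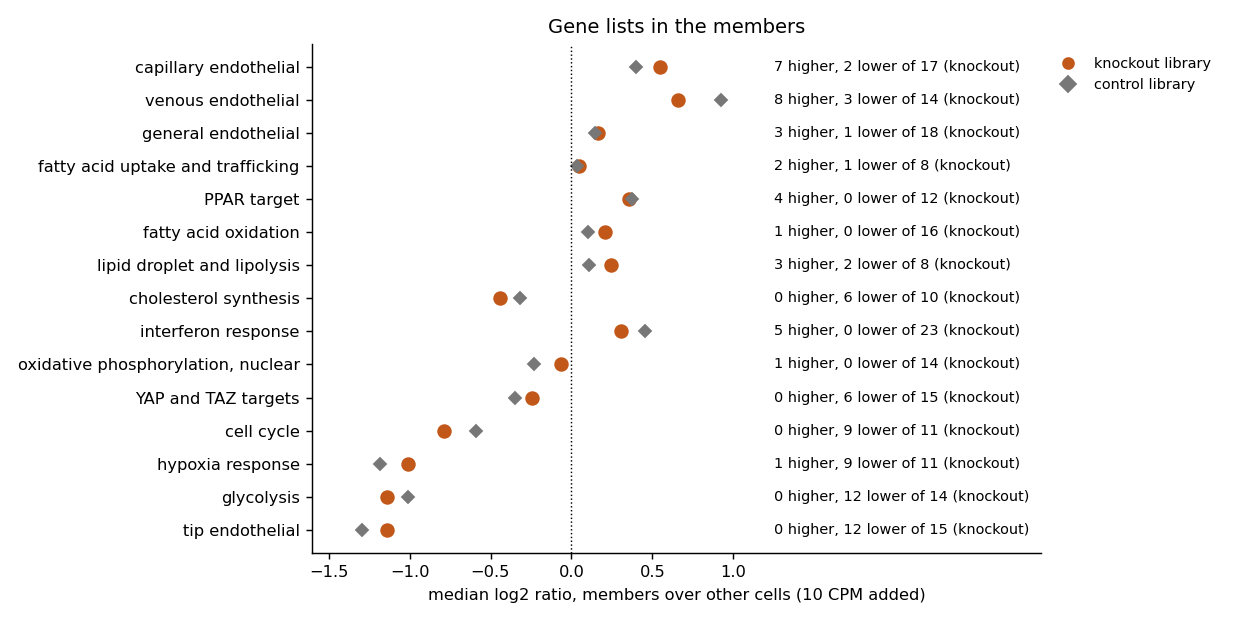
Median log2 ratio of members over other cells for 15 gene lists in the knockout (circles) and control (diamonds) libraries, score genes left out, with the counts of the knockout library at the right and the median over all genes tested as a dotted line. Capillary and venous lists lie above 0, tip, glycolysis, hypoxia and cell cycle lists below it, in both libraries.

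Lipid genes outside the score were higher in places and not as a whole. Of 8 genes of fatty acid uptake and trafficking, 2 were higher (Fabp4 and Fabp5) and 1, the acyl-CoA synthetase Acsl4, was lower (31.4 against 62.9 CPM). The median was 0.05 over all 18 genes of that list outside the score and 0.097 over these 8. Angptl4, an inhibitor of lipoprotein lipase, was at 459 and 604 CPM against 395 and 394 CPM and missed the size rule. The fatty acid list is thus carried by few genes, of which Fabp4 has by far the most UMIs.

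Pparg stood at 91.5 and 86.3 CPM in knockout members against 14.2 and 26.3 CPM, 3.99-fold higher (3.54 to 4.50). Of 7 factors of that list Pparg and Tcf15 were higher and none was lower. Meox2, the partner of Tcf15, was at 240 against 210 CPM. Of 12 PPAR targets outside the score, 4 were higher, among them Fabp4, the mitochondrial carrier Ucp2 (78.0 and 59.6 CPM against 19.5 and 18.6 CPM) and Txnip, an inhibitor of glucose uptake (766 and 552 CPM against 179 and 158 CPM).

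Fatty acid oxidation had 1 of 16 genes higher, Acaa2, and none lower, with a median of 0.21. Of 8 genes of lipid droplets and lipolysis, 3 were higher, 2 were lower and 3 passed neither way. The higher ones were Pnpla2, which makes the first cut of triglyceride, 1.80-fold, Lipe, hormone-sensitive lipase, 5.64-fold (4.85 to 6.54) and Mgll, monoglyceride lipase, 2.83-fold (2.73 to 2.94). Mgll was at 780 and 887 CPM in members against 281 and 323 CPM. Hilpda, a hypoxia-induced inhibitor of Pnpla2, was 1.60-fold lower and Plin3 1.55-fold lower.

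Cholesterol genes split by direction. Of 10 synthesis and sterol-response genes 6 were lower and none higher, among them Insig1 (23.7 and 22.7 CPM against 60.2 and 60.4 CPM) and Fdps. The HDL receptor Scarb1 was higher, at 288 and 282 CPM against 88.1 and 101 CPM, as were the exporter Abca1 (1.53-fold) and Pltp.

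Of small-molecule genes outside the score, the aldehyde dehydrogenase Aldh2, the glutathione transferase Gstm1 and the retinol-binding protein Rbp7 were higher. Rbp7 stood at 96.6 and 123 CPM against 34.1 and 67.2 CPM. Fmo1, a flavin monooxygenase named after its values were seen and below the minimum mean level, was at 23.7 and 21.3 CPM against 0.204 and 0.447 CPM. Of 12 genes of vascular tone and transport, the angiotensin-converting enzyme Ace (4.34-fold) and Aqp1 were higher, and Nos3, Adm, Ednrb and Ramp3 were lower.

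Transcripts of blood cells moved with membership as well. The 7 neutrophil genes summed to 283 CPM in knockout members and 78.4 CPM in other cells, with S100a8 at 20.3 and 95.7 CPM against 15.6 and 24.5 CPM. S100a9 was at 30.5 and 131 CPM against 23.3 and 40.3 CPM. In the depth window S100a8 was at 55.0 against 30.6 CPM. The 14 macrophage genes summed to 75.4 against 37.6 CPM, with Ptprc at 4.13 CPM and C1qa at 2.92 CPM. When cells with 5 or more UMIs of either list were left out, a setting chosen after seeing the data, S100a8 stood at 24.8 against 14.3 CPM, and 466 of the 500 higher and 370 of the 390 lower genes were still counted. T cell genes summed to 0.243 CPM. The 11 adipocyte genes in the data summed to 177 CPM in knockout members against 71.2 CPM in other cells. The 2 tested, Pnpla2 and Lipe, were higher. Below the minimum mean level, Car3 and Cfd had ratios of 155 and 56.0. Plin1 had no UMI in members (up to 0.729 CPM by 3 UMIs), while Cidec was at 0.243 CPM and Adipoq at 0.486 CPM. The source of these transcripts was not tested.

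Within the knockout members, those with an Lpl UMI were compared with those without. There were 79 with (12 in run 1 and 67 in run 2) and 221 without, at medians of 12266 and 11460 UMIs. Their totals were 1.32e+06 and 2.79e+06 UMIs, so the cells with Lpl were deeper on average. An Lpl UMI is more readily found in a deeper cell, and the split was not adjusted for depth. Of 5897 genes 173 were higher with Lpl (2.93%) and 103 were lower (1.75%). Of 17 capillary genes 7 were higher and 1 lower, of 13 venular genes none was higher and 3 were lower, and of 5 arterial genes 3 were higher (Sox17, Cxcl12 and Efnb2) and none lower. The split was chosen after seeing the data, and Lpl is a score gene, so it is a description.

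With Lpl, Gpihbp1 stood at 1106 and 1029 CPM in the 2 runs, and without it at 684 and 545 CPM. Fabp4 reached 12029 and 16640 CPM against 10678 and 8787 CPM, and Aqp7 97.3 and 52.2 CPM against 12.6 and 13.8 CPM. Cxcl12, a chemokine of capillary and arterial endothelium, was 2.65-fold higher (2.38 to 2.94). Btnl9, Rgcc, Car4 and Tcf15 were higher too. The members with Lpl UMIs thus held more of the anchor of the lipase, in both runs.

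Of the venular genes Ackr1, Selp and Lrg1 were lower with Lpl, and the other 10 tested passed neither way (list median -0.11). Ackr1 was at 26.5 and 54.7 CPM with Lpl and at 170 and 200 CPM without it, 3.74-fold lower with Lpl. Selp was at 79.6 and 200 CPM against 250 and 469 CPM, and Lrg1 at 884 and 885 CPM against 1413 and 1561 CPM. The prostaglandin transporter Slco2a1, the leptin receptor Lepr and the insulin receptor Insr were 4.46-fold, 4.63-fold and 2.26-fold lower with Lpl, and Aqp1 was 1.59-fold lower. Sult1a1 (227 against 231 CPM) and Apoe (345 CPM on each side) passed neither way.

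**Figure D4:**
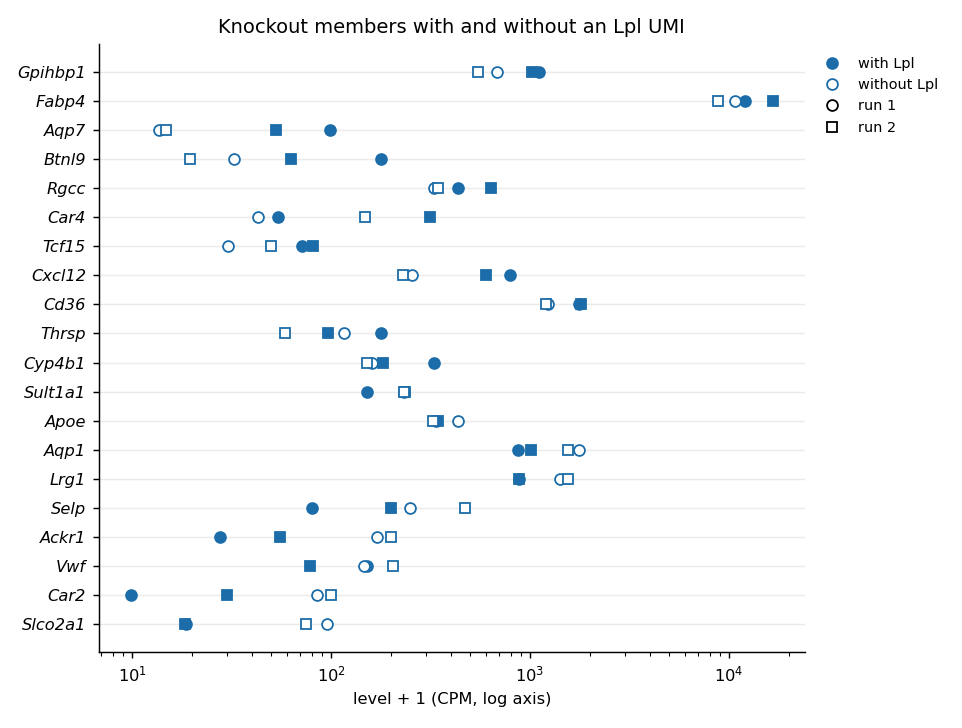
Level plus 1 CPM, on a log axis, of 20 genes in knockout members with (filled) and without (open) an Lpl UMI, by run (circle or square). Gpihbp1, Fabp4, Aqp7 and Cxcl12 lie to the right with Lpl, Ackr1, Selp, Lrg1 and Slco2a1 to the left, and Apoe and Sult1a1 mix.

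Neutrophil transcripts also moved with Lpl. They summed to 629 CPM with it and 119 CPM without it, S100a8 being 225 CPM in run 2 with Lpl and 26.5 CPM in run 1. Genes of red blood cells summed to 103 against 5.37 CPM. Their part in the split was not tested.

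The knockout members were also ranked by score into a top, a middle and a bottom set of 100. In that order Fabp4 was at 19857, 8395 and 7289 CPM and Aqp7 at 62.4, 16.4 and 8.36 CPM. Gpihbp1 was at 1066, 532 and 613 CPM. Selp was at 208, 436 and 394 CPM, lowest in the top set. Esm1 went from 46.0 to 142 and 240 CPM and glycolysis genes from 3100 to 3900 and 4821 CPM in sum. In Esm1 and the glycolysis genes the set nearest the threshold was thus also nearest the other cells, while in Selp the top set was nearest them.

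The comparison of knockout with control members asks how such cells differ where Nf2 is labelled as lost, and it rests on 300 against 38 cells. Of 5921 genes 357 were higher in knockout members (6.03%) and 427 lower (7.21%), both knockout runs lying on one side of both control runs. In the other cells the same comparison gave 156 higher (2.68%) and 313 lower (5.37%) of 5826 genes. With so few control members, 1 cell could carry much of a gene there.

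Apln, the apelin ligand of tip cells, was at 773 and 722 CPM in knockout members and at 143 and 7.05 CPM in control members, 9.56-fold higher (7.10 to 13.2). In the other cells its ratio was 1.91. Edn1, the vasoconstrictor endothelin 1, was at 673 and 704 CPM against 171 and 106 CPM, a ratio of 5.04 (4.04 to 6.38), close to the 4.84 of the other cells. Ctgf had 502 and 519 CPM against 140 and 88.2 CPM, and Cyr61 688 and 766 CPM against 294 and 190 CPM. Both are YAP and TAZ targets, of which 4 of 11 tested were higher (with Amotl2 and Crim1) and 2 lower (Nt5e and Igfbp3) in knockout members. In the other cells 8 of 14 targets tested were higher in the knockout library and 2 lower.

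The chemokine Ccl2 was 9.90-fold higher (4.99 to 23.0), Ifi27l2a 9.60-fold and Gas6 7.21-fold. Gdf15, a stress-induced cytokine, was at 67.8 and 72.4 CPM in knockout members, where 63 cells carried it. Control members had a single UMI of it, a ratio of 41.4 (7.37 to 1639). All 8 of the highest ratios were also above 1 in the other cells, from 1.72 for Ctgf to 4.84 for Edn1. Whether the ratios of members and other cells differ was not tested.

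Lowest in knockout members were genes of antigen presentation by MHC class II. Cd74, the invariant chain, was at 129 and 37.2 CPM in knockout members and at 1597 and 1104 CPM in control members, 26.9-fold lower (23.1 to 31.5). H2-Aa, H2-Eb1 and H2-Ab1 were 30.9-fold, 29.0-fold and 19.3-fold lower. All 6 class II genes tested were lower, and no run of either library overlapped. In the other cells Cd74 was 3.33-fold lower, and 5 of 5 class II genes tested were lower. Macrophage genes summed to 75.4 CPM in knockout members and 106 CPM in control members, and neutrophil genes to 283 and 406 CPM. Without the cells that held 5 or more UMIs of either list, class II genes summed to 72.7 CPM in 268 knockout members and 1975 CPM in 31 control members, against 96.8 and 2315 CPM with them.

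Arterial and Notch genes were lower too: Hey1, a Notch target, at 5.09 and 12.8 CPM against 106 and 208 CPM, and Gja4, a connexin of arteries, at 3.39 and 1.14 CPM against 23.9 and 339 CPM. For Gja4 1 control cell gave 42.7% of the UMIs. Of 9 arterial genes 6 were lower and 1 higher, and of 8 Notch genes 6 were lower and none higher. In the other cells 4 of 7 arterial genes were lower and 1 higher, and 4 of 8 Notch genes were lower and none higher. Igfbp3 was 7.93-fold lower and Ms4a6d, a gene of myeloid cells, 13.9-fold lower.

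**Figure D5:**
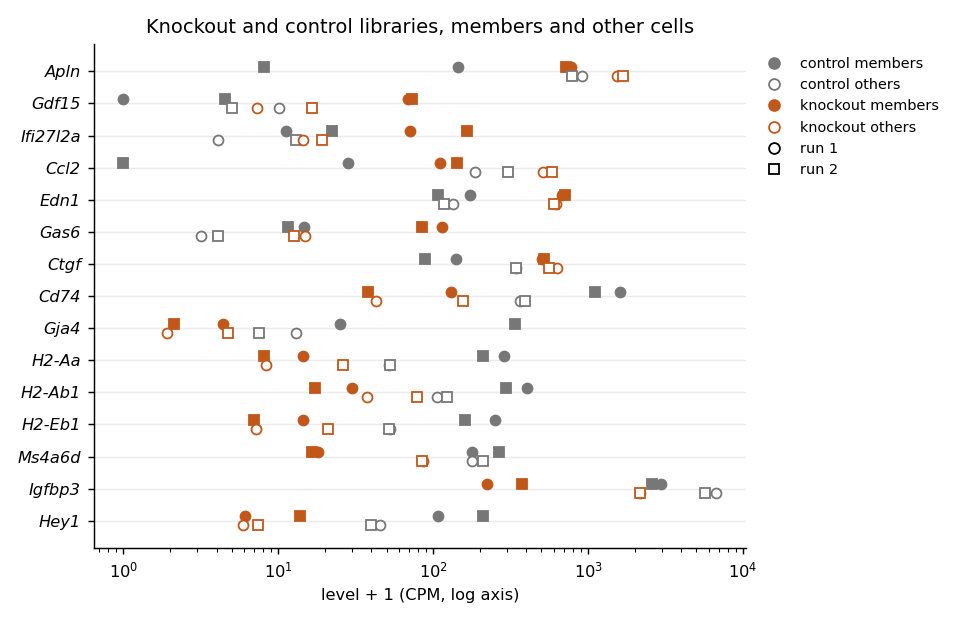
Level plus 1 CPM, on a log axis, of 15 genes among those with the highest and lowest ratios of knockout over control members, in members (filled) and other cells (open), by run. The knockout members lie right of the control members for Apln, Edn1 and Ctgf and left of them for Cd74, H2-Ab1 and Hey1.

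Of the 6 score genes, 2 were higher in knockout members (Cyp4b1 and Sult1a1, the latter 2.10-fold) and 1, Lpl, was lower. Cd36 (ratio 1.11), Apoe (0.915), Fabp4 (1.33) and Fabp5 (1.42) passed neither way. Gpihbp1 was lower in knockout members, at 765 and 711 CPM against 1761 and 1555 CPM, 2.31-fold lower, and 2.42-fold lower in the other cells. Tcf15, Aqp1 and Scarb1 were 1.81-fold, 1.84-fold and 1.91-fold lower. Selp and Ackr1 were 2.04-fold and 3.91-fold higher. In the other cells Selp and Ackr1 were also higher in the knockout library and Aqp1 was also lower, while Tcf15 and Scarb1 were not counted either way.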

How the data were processed

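Single cells of 2 libraries, 1 control and 1 labelled NF2 KO, were analysed. Per the labels and file values, the authors deposited natural log values, ln(1 + UMIs scaled to 10000 per cell); Cell Ranger 3.0.0, Seurat 3.1.1 and the build mm10 are named in the submitters' processing notes. Their filters on cells are not given in the sources used here. Whole UMI counts were recovered for 100% of the deposited values (tolerance 0.01 UMI), and summed over cells by library and run. Total UMIs were 4112731 in knockout members, 53165297 in other knockout cells, 576568 in control members and 31195126 in other control cells.

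Levels are CPM with exact Poisson intervals, ratios have exact conditional intervals, and shares have exact binomial (Clopper-Pearson) intervals, all 95% and for counting error only. With 1 library per group there was no test. Cells were thinned to 5000 UMIs for shares of cells with a gene. Doublets were kept, and a simulated-doublet score served as an alternative. Python 3.11.15, numpy 2.4.6, scipy 1.17.1, pandas 2.3.3 and matplotlib 3.10.9 were used, and the ratio step was tested on simulated data.

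Named genes are the score genes, the 20 highest and 15 lowest ratios past the size rule (mitochondrial, ribosomal and Gm- or Rik-named genes left out), members of 35 gene lists past the rule or most abundant, and the 8 highest and 8 lowest ratios of knockout over control members. Ratios were ranked with 10 CPM added to both sides and are printed without it. The members and the lists were chosen with earlier results of these data known. Alternatives covered the score, the share of cells chosen, the gene minimum, depth, doublets, other cell types, single runs and the thresholds. Some genes the rule names are not reported here.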

Additional observations from a re-analysis of the deposited data

Results flagged for a closer look

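For 4 genes the difference between members and other cells went opposite ways in the 2 libraries, in every run. The difference between the libraries was not tested, since each is a single library.

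H2-Ab1, a chain of MHC class II, was lower in members of the knockout library (ratio 0.2871) and higher in members of the control library (3.05). H2-DMa and H2-DMb1, which load peptides onto class II, went the same ways: 0.5876 and 4.634 for H2-DMa, and 0.5193 and 1.985 for H2-DMb1. Without the cells that held 5 or more UMIs of macrophage or neutrophil genes, the H2-Ab1 ratios were 0.240 and 2.62. Gdf15 had a ratio of 5.912 in the knockout library and 0.2678 in the control, the latter from 1 UMI in the control members.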

How the results depend on the processing

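Members are cells of single libraries, and the size rule is a threshold on sums of UMIs, so counts move with it. The share of knockout cells stayed within its interval under 14 of 16 alternatives and that of control cells under 13 of 16. The top 5% of cells gave 6.91% and 1.14%, and the top 12% gave 15% and 5.98%. In the window of 5000 to 15000 UMIs, added after seeing the data, the control share was 1.31%, and the counts between the libraries' members were 154 higher and 218 lower. Of the 24 alternatives for members against other knockout cells, 21 kept each count within 1.5 times. Without a minimum CPM there were 1418 higher and 1099 lower genes, with a minimum of 50 CPM 266 and 200, and with a ratio of at least 2, 206 and 183. Between the libraries' members, 50 CPM gave 206 higher and 232 lower, and a ratio of at least 2 gave 157 and 175. The median of the fatty acid uptake list, 0.05, turned to -0.0029 with at least 3000 genes per cell and to -0.0027 with the score without Cd36 or without Cyp4b1; the cause was not tested. The capillary median lay between 0.38 and 0.70 in all 23 alternatives. No paired analysis was possible because each group is 1 library.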
